A study of Mus musculus with 2 samples.

Results

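A set of 9 genes of the hedgehog signalling pathway was followed across an allograft and an autograft sample of mouse bone: the ligand Ihh, the receptors and ligand binding proteins Ptch1, Hhip and Gas1, the transducer Smo, the inhibitor Sufu and the transcription factors Gli1, Gli2 and Gli3. They were chosen by name, as all probe sets whose only gene symbol in the platform annotation was one of these 9. The rule found 16 probe sets for the 9 genes, of 20380 probe sets with 1 symbol and 12393 genes in all. A probe set is a group of short oligonucleotides that are read together as 1 intensity for a transcript. Of the 9 genes, 3 had 1 probe set (Ihh, Gli1 and Gli3) and 6 had more.

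The samples were total RNA of murine bone, each labelled as from the femur of c57Bl/6 animals, 1 an allograft (tissue grafted from another animal of the species) and 1 an autograft (tissue grafted within an animal). Each was read on 1 array. The labels name no treatment, age, sex, time after grafting or number of animals, and do not say whether the strain refers to the donor or to the host. With 1 array per graft type no difference below has a replicate check, the graft types could not be tested against each other, and every value is only as precise as a single array allows.

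In the hedgehog pathway a secreted ligand binds Ptch1, which otherwise keeps the membrane protein Smo inactive, and active Smo at the primary cilium lets the Gli transcription factors turn on their targets. Sufu holds the Gli proteins back, and Gli1, Ptch1 and Hhip are themselves targets that are commonly read as a measure of pathway activity. In bone, Ihh is made by chondrocytes that are about to become hypertrophic, and it is known for driving chondrocyte division and the formation of osteoblasts, in the growth plate and in healing bone.

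Of the 16 probe sets, 14 read lower in the allograft than in the autograft, and the 2 that read higher both belonged to Gas1. Lower readings in the allograft were the majority over the whole array too, at 59.7% of all probe sets with 1 symbol. In a sample of whole tissue, fewer cells of a type and less RNA per cell cannot be told apart. Values were called above the floor from an intensity of 175.2, the median of all non-control values. By that measure 7 of the 16 probe sets, from 5 genes (Ptch1, Gas1, Smo, Sufu and Gli2), were above the floor on both arrays and 9 were below it on both. Of the 7, 5 read lower in the allograft, against 57.0% of the array's probe sets above the floor on both, and of the 9, all read lower, against 61.3% of those below it on both. Taking the brightest probe set of each gene, 8 of the 9 genes read lower, against 60.3% of all genes. Neither a probe set of these genes nor any of the 5 genes as a whole reached a 2-fold difference, against 1.72% of the 11010 probe sets on the array that were above the floor on at least 1 array (0.990% higher and 0.727% lower). At 1.5-fold there were 4 of the 7, with 3 lower (both of Smo and 1 of Ptch1) and 1 higher (Gas1), against 10.8% of the array in either direction, 6.49% lower and 4.28% higher.

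**Figure D1:**
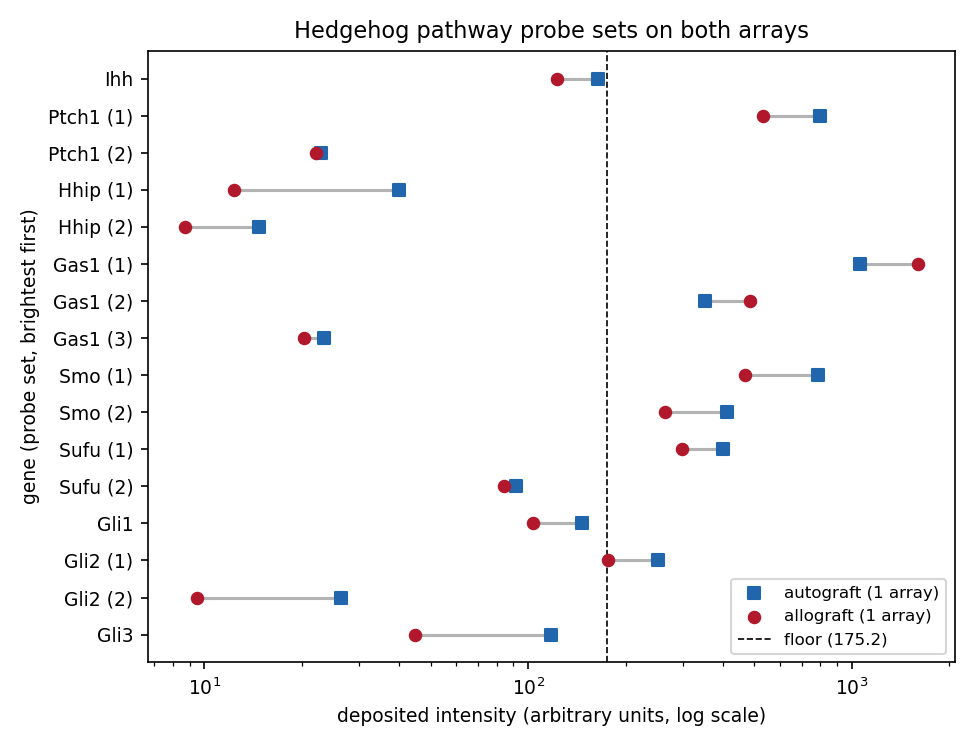
Deposited intensity (log scale, arbitrary units) of each of the 16 hedgehog pathway probe sets on the allograft array (red circles) and the autograft array (blue squares), with 1 array each and no error bars. The dashed line is the floor of 175.2, which 7 probe sets exceed on both arrays; the circle lies to the right of the square in 2 probe sets of Gas1 and to the left in the other 14.

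The ligand Ihh was below the floor on both arrays. Its probe set read 123 in the allograft and 164.5 in the autograft. No ratio is given under this floor, because neither array gave a reading above it. The ligands Shh, which patterns the limb and neural tube, and Dhh, known from nerve and testis, were also below the floor. Shh read 7.3 on both arrays, and the brighter probe set of Dhh read 92.2 in the allograft and 114.5 in the autograft.

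Among the receptors and ligand binding proteins, Ptch1 read lower and Gas1 higher in the allograft. The brighter probe set of Ptch1, the receptor that restrains Smo, read 531 in the allograft and 798 in the autograft. Its log2 ratio of allograft over autograft was -0.59, just past the 1.5-fold mark. Of the 9774 probe sets with both readings above the floor, 6.2% had a lower ratio. The second Ptch1 probe set read 22.1 and 22.9, below the floor on both arrays, so it gives no second measure of the difference.

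Gas1, a membrane protein that helps the ligand reach Ptch1, was the one member with a ratio above 0. Its brightest probe set read 1602 in the allograft and 1057 in the autograft, a log2 ratio of 0.60 (1.52-fold higher). A second probe set read 484 and 353, a log2 ratio of 0.46. These ratios exceeded those of 95.8% and 92.4% of those 9774 probe sets. The third, at 20.3 and 23.4, was below the floor. Hhip, a membrane protein that binds and sequesters the ligand, was below the floor in both of its probe sets, at 12.3 and 39.8 in one and 8.7 and 14.7 in the other, for the allograft and the autograft.

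Smo, which carries the signal across the membrane, had the lowest ratio among the 5 genes above the floor. Its brighter probe set read 469 in the allograft and 788 in the autograft, a log2 ratio of -0.75 (1.68-fold lower), and 2.5% of the 9774 probe sets had a lower ratio. The other read 265 and 412, a log2 ratio of -0.64, with 4.8% of the same probe sets lower. Both are annotated to the same transcript record, so they share a target, and the brighter one has the suffix used on these arrays for oligonucleotides that can match more than 1 transcript.

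For Smo and Gas1, 2 probe sets each were above the floor on both arrays, which allows a comparison within the gene. The log2 ratios of the pair were 0.11 apart for Smo and 0.14 apart for Gas1. Over the 1925 genes with such a pair, the median distance was 0.27 and the SD of the difference was 0.44. In the 186 of these genes where the brighter one differed by 1.5-fold or more, the sign of the second was the same in 74.7%. The pairs of Smo and Gas1 thus had the same sign and lay closer together than the median pair. This is agreement between oligonucleotides hybridised with the same RNA, and gives no measure of the spread between grafts.

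**Figure D2:**
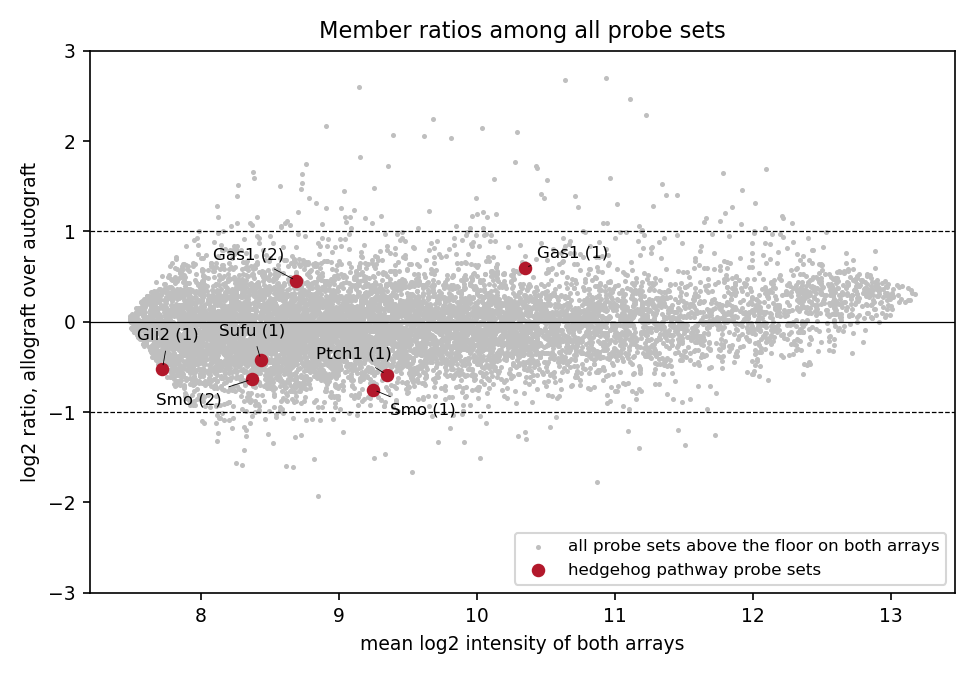
Log2 ratio of allograft over autograft (vertical axis) against mean log2 intensity of both arrays (horizontal axis) for the 9774 probe sets with both readings above the floor (grey) and the 7 hedgehog pathway probe sets among them (red, numbered from the brightest of each gene). Dashed lines mark a 2-fold difference, 1 grey point lies outside the plotted range, and the red points lie between -0.75 (Smo) and 0.60 (Gas1).

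Sufu, the cytoplasmic inhibitor of the Gli proteins, read 299 in the allograft and 401 in the autograft in its brighter probe set, a log2 ratio of -0.43. Its second probe set, annotated to the same transcript record, read 84.0 and 91.7, below the floor. The brighter probe set of Sufu was therefore lower by 1.34-fold, and 13.6% of the 9774 probe sets had a lower ratio.

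Of the transcription factors, Gli2 alone was above the floor, and by little. Gli2, the main activator among the Gli proteins, read 175.9 in the allograft, next to the floor of 175.2, and 252.6 in the autograft. Its log2 ratio was -0.52, with 8.7% of the 9774 probe sets lower. A second probe set, annotated to the same sequence record, read 9.5 and 26.4, below the floor on both arrays. Gli1, the target gene that amplifies the signal, read 103.5 in the allograft and 146.9 in the autograft. Gli3, which acts mostly as a repressor when the pathway is off, read 44.8 and 117.6. Gli1 and Gli3 were thus below the floor on both arrays, with the lower reading in the allograft.

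With the floor at the 25th percentile of intensities (50.6) in place of the median, 3 more of the genes gave a ratio. Gli3 was then above the floor in the autograft alone, at least 2.32-fold lower in the allograft, where 2.60% of probe sets on the array were at least 2-fold lower under that floor. Gli1 had a log2 ratio of -0.51 and Ihh one of -0.42 under the same floor. With no floor and 16 added to each intensity, Gli3 stood at -1.14 and the brighter probe set of Hhip at -0.98, where 4.09% of probe sets were at least 2-fold lower. Readings this low lie where background makes up more of the signal, and the files hold no detection call that would separate signal from background.

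Across the 5 genes above the floor, each taken by its brightest probe set, the median log2 ratio was -0.52. Over the 7101 genes of the array above the floor on both arrays it was -0.07, with 58.5% of them below 0, and over the 7833 above it on at least 1 array it was -0.08, with 59.5% below 0, so the middle of the array itself lay slightly to the autograft side. The ratio also varied with brightness. The median ratio of probe sets of like intensity was -0.08 for Ptch1 and the brighter Smo probe set, -0.14 for Sufu and -0.06 for Gli2. Relative to these, Smo stood at -0.67, Ptch1 at -0.51, Gli2 at -0.47 and Sufu at -0.29, and Gas1 at 0.67 in its brightest probe set. The members that passed the floor are not all members, and the 5 values are a description of this pair of arrays.

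**Figure D3:**
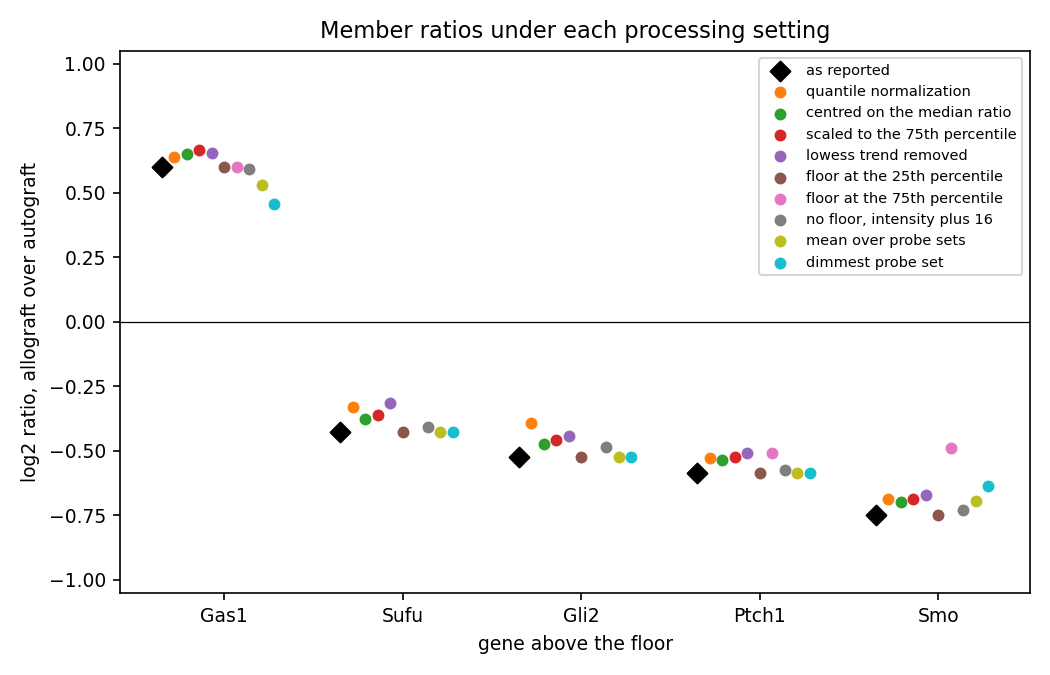
Log2 ratio of allograft over autograft for the 5 hedgehog pathway genes above the floor, as reported (black diamonds) and under each alternative scaling, floor or choice of probe set (coloured circles). Gas1 stays above 0, between 0.46 and 0.66, and Smo stays below 0, between -0.75 and -0.49. With the floor at the 75th percentile Smo (-0.49) and Ptch1 are bounds. Gli2 and Sufu have no point there, as both arrays lie below that floor.

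Promoter windows of Smo, Ptch1 and Gas1 are shown because these 3 genes had the ratios farthest from 0. They are the 250 bases before a start site in RefSeq's annotation of GRCm38.p6, written 5′ to 3′ along the gene, with the GC box GGGCGG or its reverse complement CCGCCC in capitals. The Smo window is chr6:29735247-29735496 on the plus strand, that of Ptch1 chr13:63565736-63565985 on the minus strand, and that of Gas1 chr13:60177536-60177785 on the minus strand. The Ptch1 start site used by the table lies 7725 bases inside the edge of the annotated gene, so other start sites of Ptch1 are not covered.
Smo: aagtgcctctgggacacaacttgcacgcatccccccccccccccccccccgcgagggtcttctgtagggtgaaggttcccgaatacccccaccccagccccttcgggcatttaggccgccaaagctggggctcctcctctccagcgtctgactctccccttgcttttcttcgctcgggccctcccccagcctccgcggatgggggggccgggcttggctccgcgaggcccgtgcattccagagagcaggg
Ptch1: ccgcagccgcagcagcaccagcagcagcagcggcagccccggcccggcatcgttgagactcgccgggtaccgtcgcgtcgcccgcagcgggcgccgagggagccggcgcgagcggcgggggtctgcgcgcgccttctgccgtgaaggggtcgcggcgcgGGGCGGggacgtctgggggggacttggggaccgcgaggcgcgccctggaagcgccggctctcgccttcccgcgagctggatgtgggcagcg
Gas1: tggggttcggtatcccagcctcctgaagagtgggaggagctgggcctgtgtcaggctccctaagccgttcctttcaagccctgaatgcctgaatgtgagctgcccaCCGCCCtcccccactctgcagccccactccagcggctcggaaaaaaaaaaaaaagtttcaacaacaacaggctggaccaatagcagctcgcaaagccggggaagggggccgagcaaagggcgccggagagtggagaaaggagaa

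All members but Gli1 were matched to a window. The core Gli binding site, GACCACCCA on either strand, was found in 0 of the 8 windows of 300 bases (250 before and 50 after the start), and in 0.253% of all 32851 windows of that length. The GC box, a motif of many promoters rich in G and C, was chosen after the values were seen and was in 7 of the 8 windows before the start, all but that of Smo, against 32.7% of all. CG dinucleotides numbered 15 for Smo, 41 for Ptch1 and 10 for Gas1, with a median of 6 over all windows. Matches of letters describe the windows alone, and a window without the Gli letters says nothing on binding elsewhere.

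Other genes of the pathway were taken from a fixed list of 41, of which 29 had a probe set of their own and 22 were above the floor on at least 1 array. Of the 19 above it on both, 11 had a ratio above 0 and 8 below (58.5% below 0 over all such genes), with a median of 0.04. None of the 22 reached 2-fold, against 1.62% of all genes above the floor on at least 1 array (0.868% higher and 0.753% lower). The co-receptor Boc read 210.0 in the allograft and 206.8 in the autograft, and its partner Cdon was below the floor (5.6 and 8.5). Kif7, a ciliary kinesin that regulates the Gli proteins, had no probe set to itself.

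At the low end of that list were Evc and Tulp3, both proteins of the primary cilium. Evc, which binds Smo there, read 205 in the allograft and 388 in the autograft, a log2 ratio of -0.92. Its second probe set was below the floor, at 27.6 and 27.9. Tulp3, which carries receptors into the cilium, read 245 and 433.5, a log2 ratio of -0.82. At the high end was Ift140, a subunit of the transport complex of the cilium, which read 990 in the allograft and 556 in the autograft, a log2 ratio of 0.83.

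Fbxw11, which directs Gli proteins to breakdown, stood at 0.74 in its brightest probe set (3003 and 1793) but at -0.22 in another (1126 and 1313). The brightest one has a suffix used for oligonucleotides that can match other transcripts. With both arrays above the floor, genes of ciliary transport lay on both sides of 0, 4 above and 2 below, as did the cytoplasmic and ciliary regulators with 6 and 5.

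Targets and partners of the pathway in cartilage and bone made up a list of 17 genes, of which 15 had a probe set and 7 exceeded the floor in both samples. Of the 7, 6 had a ratio below 0 and 1 above, where 58.5% of all such genes were below 0, and their median was -0.48. A further 2, Foxf1 and Foxc2, were above the floor in the autograft alone, which fixes their sign, and are not counted. With values below the floor set to it, none of the 9 reached 2-fold, against 1.62% of all genes. For Foxf1, which read 66.4 in the allograft and 253.6 in the autograft, the ratio of -0.53 is a bound. It passed 2-fold with the floor at the 25th percentile. Pth1r, the receptor for the parathyroid hormone related protein that Ihh calls up in the growth plate, read 1545 in the allograft and 2949 in the autograft, a log2 ratio of -0.93. Pthlh, which encodes that protein, had no probe set to itself. The survival gene Bcl2 read 180.5 and 285, a log2 ratio of -0.66. The other end held the cyclin gene Ccnd2, at 0.12 (2044 and 1886), and Igfbp6, which binds insulin-like growth factor, at -0.01 (1813 and 1822). Further probe sets of Ccnd2 above the floor on both arrays stood at 0.14, 0.07 and 0.89, the last with the same suffix as the brightest of Fbxw11.

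**Figure D4:**
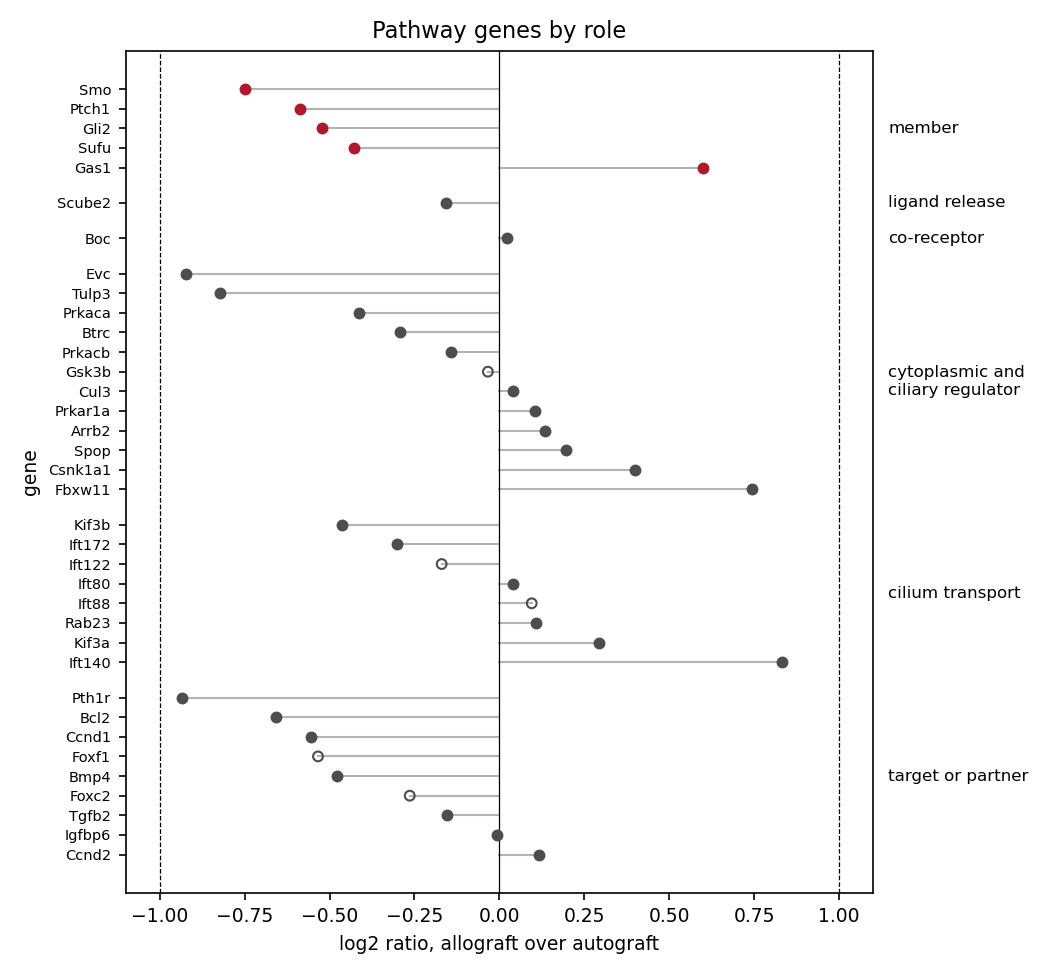
Log2 ratio of allograft over autograft for the 5 members above the floor (red) and for other listed pathway genes above the floor on at least 1 array (grey), grouped by role, 1 array per graft type. Open circles are ratios against the floor, where 1 array lies below it, and are bounds. Dashed lines mark 2-fold, which no point shown reaches, and of the 7 targets and partners with filled circles 6 lie left of 0. The side of an open circle is fixed by which array lies above the floor.

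Both arrays carried markers of cartilage, bone, blood cells and skeletal muscle, and several of these lists differed between the arrays in the same pair of samples. Of 13 chondrocyte genes, 9 exceeded the floor in both samples. Of the 9, 8 were below 0, against 58.5% of all such genes, with a median of -0.66. The 9 ran from Col9a3 at -1.67 (another of its probe sets stood at -0.21) to Col2a1 at 0.44. Summed over the 13 genes, the intensity came to 23189 for the allograft and 29087 for the autograft, and no marker read 0. Col10a1, the collagen of hypertrophic cartilage, stood at -1.51. The other 3 genes of the hypertrophic list, Mmp13, Ibsp and Mef2c, lay between 0.05 and 0.09 in their brightest probe sets. A second probe set of Ibsp, which is on the osteoblast list too, stood at -0.56. The summed intensity of the list was 19524 and 19284, of which Col10a1 made up only 362 and 1029. The osteoblast list was split. Col1a1 stood at 2.70, Col1a2 at 1.11 and Ibsp at 0.05, but Sp7 at -0.60, Dmp1 at -0.83 and Alpl at -1.25. The sums were 21905 and 18631, of which Col1a1 made up 4994 and 771, and Col1a2 5111 and 2362. Second probe sets of Col1a1 (2736 and 31.3) and Col1a2 (445.5 and 14.9) were below the floor in the autograft alone. Fibroblast and stromal genes had a median of -0.04 (24395 and 21681). Of these sums, Ctsk, which is not particular to fibroblasts, made up 7694 and 6198.

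Erythroid genes were higher in the allograft in 7 of 7, with sums of 18747 and 9266, and Hemgn (1.41), Ermap (1.39), Rhag (1.26) and Slc4a1 (1.20) were past 2-fold. So were the muscle genes Atp2a1 (1.71) and Acta1 (1.08). In all, 5 of 6 muscle genes (sums of 30145 and 21716) and 8 of 8 neutrophil genes (44479 and 33906) were above 0. Over all genes above the floor on both arrays, 58.5% lay on the opposite side, below 0. Among all genes above it on at least 1 array, 0.868% passed 2-fold toward the allograft. The ratio of 3′ to 5′ intensity of the beta-actin controls was 1.77 for the allograft array and 1.19 for the autograft array. That ratio is commonly read for RNA breakdown when well above 1, and no limit for it was set here. For the Gapdh controls it was 0.194 and 0.0349, below 1 on both arrays, and cannot be read that way. The part of these differences in the ratios of Smo, Ptch1, Gli2, Sufu and Gas1 was not tested, and with 1 array of each graft they cannot be told apart from the graft type.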

How the data were processed

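Each array's deposited file column gives linear intensities, 1 for every probe set. How the authors made them, with which software, background correction and scaling, is not given in the sources used here. The intensities were used as deposited, since their 2% trimmed means were close (allograft 500.2, autograft 500.1). Of 22690 probe sets, 64 controls, 691 with several gene symbols and 1555 without one in the platform annotation were left out; 20351 of the other 20380 matched RefSeq's gene table of GRCm38.p6 by Entrez identifier.

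Intensities below the floor, the median of both arrays, were set to it before log2 was taken, and ratios are allograft minus autograft. Where a gene had several probe sets, the brightest stood for it. A ratio with 1 array below the floor is a bound. The counting step was tested on simulated data. Named were all members, the 2 highest and 2 lowest genes of each other list (taking the cell type markers as 1 list), any of their genes past 2-fold, and Shh, Dhh, Pthlh, Pth1r, Kif7, Boc, Cdon, Col2a1, Col10a1, Col1a1 and Alpl; 1 further gene of the rule is not reported here. Some further genes, among them the rest of the osteoblast and hypertrophic lists, were named outside this rule. The members and lists were chosen with earlier results of these data known. Alternatives were 4 other scalings, 3 other treatments of low values, thresholds of 1.5-fold and 4-fold, and 2 other choices of probe set. Values were computed with pandas 2.3.3 and numpy 2.4.6 in Python 3.11.15; statsmodels 0.14.6 gave the lowess fit (span 0.4), scipy 1.17.1 the trimmed means, and matplotlib 3.10.9 the figures.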

Additional observations from a re-analysis of the deposited data

How the results depend on the processing

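The ratios of Ptch1, Gas1, Smo, Sufu and Gli2 kept their sign in all 43 alternatives that gave them a value, and each moved by less than 0.31, the spread of 1 probe set's ratio taken from pairs of probe sets of one gene (no replicate spread exists here). Not all of the 43 could differ. The floor at the 25th percentile left every ratio unchanged. Ptch1, Sufu and Gli2 had only 1 probe set above the floor, so the other choices of probe set returned the same value. With the floor at the 75th percentile (561.5) Gli2 and Sufu gave no value. Ptch1 and Smo were bounds there, at -0.51 and -0.49, and a bound has its sign fixed. The median over the members ran from -0.52 to -0.39, the latter after quantile normalization. Member probe sets past the threshold numbered 1 under a floor at the 25th percentile and 1 with no floor and 16 added to each intensity (Gli3 both times, lower), and 4 at 1.5-fold, against 0 as reported. Other pathway and target genes past the threshold numbered 1 with the floor at the 25th percentile (Foxf1, lower) and 2 with no floor (Foxf1 lower, Mycn higher). At 1.5-fold they numbered 6 of the 31 above the floor on at least 1 array, against 0 as reported. Over the array, 2.60% of probe sets were at least 2-fold lower under the 25th percentile floor and 4.09% with no floor. At 1.5-fold, 10.8% of probe sets were past the threshold in either direction. Ihh, Gli1, Gli3 and Hhip are limited by signals below the floor.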
